A study of Mus musculus with 2 samples.

Results

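The small leucine-rich proteoglycans are a family of secreted matrix proteins, and 10 of their genes were read here by the chromosome they share. These were Dcn, Lum, Kera and Epyc on chromosome 10, Aspn, Omd and Ogn on chromosome 13, Prelp and Fmod on chromosome 1, and Bgn on chromosome X. Each of the 10 names matched 1 row, out of 49492 gene symbols in the deposited tables. The libraries came from cultured Nestin+ cells, described as mesenchymal stem cells, of Nestin-GFP transgenic mice of the C57BL/6 strain aged 7 days, in which a green fluorescent reporter is under Nestin control. Bone marrow cells and heart cells at passage 10 gave 1 library each, so the differences are without any check by replicates. The heart medium was DMEM/F12 mixed with IMDM, with 20 ng/ml EGF, 20 ng/ml bFGF, 4 ng/ml cardiotrophin-1, 1% N2, 2% B27, 0.1 mM beta-mercaptoethanol, L-glutamine and antibiotics. The bone marrow cells were grown in a different, earlier published medium, so tissue and medium cannot be told apart. Whether cells of several mice were pooled is not given in the sources used here.

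Small leucine-rich proteoglycans have a protein core built of leucine-rich repeats that binds collagen fibrils and sets how they grow and pack. Many carry chains of chondroitin, dermatan or keratan sulfate, and several hold growth factors such as TGF-beta in the matrix. The family is divided into classes by the cysteines near the start of the protein and by gene structure, and members of different classes lie next to each other in the genome. Decorin and biglycan are abundant in heart and bone matrix, while osteomodulin was first known from bone, keratocan from cornea and epiphycan from growth cartilage.

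The values are RPKM, reads scaled by gene length and by library size, so levels of different genes can be compared per length. The libraries held 53999963 reads for bone marrow and 64872683 for heart, recovered from the deposited values. Intervals in brackets are exact 95% counting intervals. They cover counting error in these libraries only and treat each read as independent. Reads that carry no molecular identifier may be copies of the same molecule, in which case the intervals are too narrow. Fewer cells making an RNA and less RNA per cell cannot be told apart in such bulk libraries.

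Members that share a chromosome went the same way wherever their level was high enough to compare. The log2 ratio used throughout is log2((heart RPKM + 1)/(bone marrow RPKM + 1)), and a gene was taken as higher in one tissue when it was 1 or more in either direction and the larger of its levels reached 5 RPKM. Of the 10 members, 2 were higher in heart by this rule and both lie on chromosome 10, and 5 were higher in bone marrow and lie on chromosomes 13 and 1. Of the 7659 genes that reached 5 RPKM, 7.56% (579) were higher in heart and 9.51% (728) in bone marrow, or 704 and 583 when heart was scaled to a median ratio of 1. Bgn on chromosome X was within 2-fold, and Kera and Epyc were below 5 RPKM in both libraries. At an 8-fold rule, which 1.59% of all genes passed toward heart and 1.16% toward bone marrow, 2 members passed toward heart and 4 toward bone marrow. The median log2 ratio over all 10 members was -1.11, between members at opposite ends of the range, and that of the 7659 genes was -0.15.

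**Figure D1:**
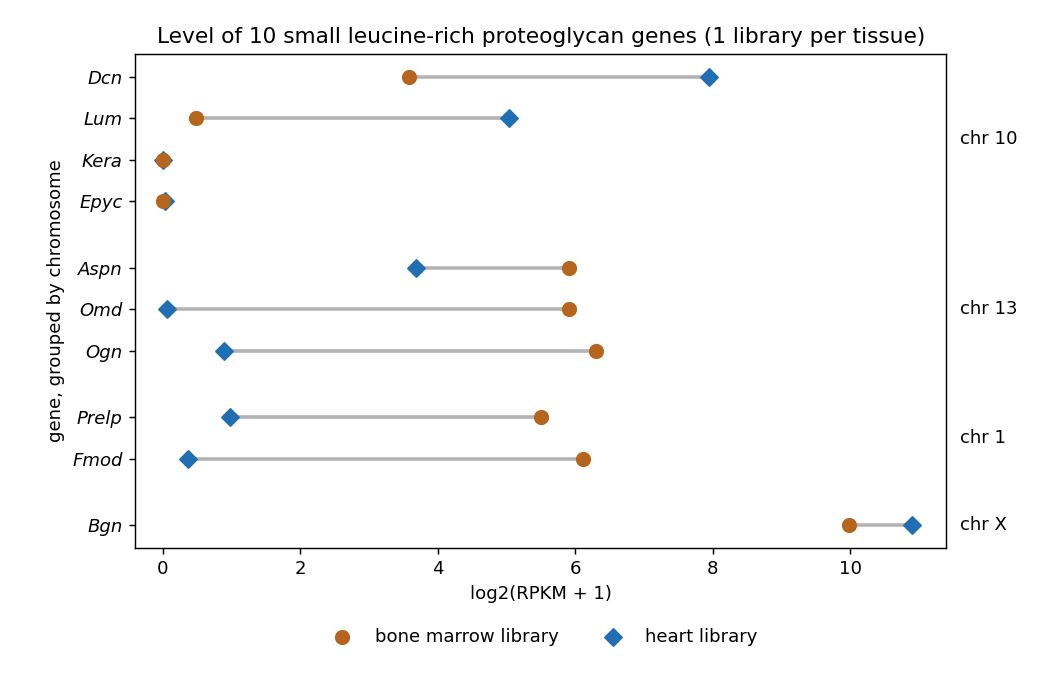
Level of each member in the bone marrow library (circles) and the heart library (diamonds) as log2(RPKM + 1), grouped by chromosome, with 1 library per tissue and no error bars. Dcn and Lum are further right in heart, the 5 members on chromosomes 13 and 1 are further right in bone marrow, Bgn is high in both, and Kera and Epyc are at or near 0.

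On chromosome 10, the members at one end of the cluster were much higher in heart and those at the other end were almost silent in both libraries. The 4 genes lie in the order Dcn, Lum, Kera, Epyc on the plus strand, within 203 kb. Dcn (97479500 to 97518162) encodes decorin, a collagen-binding proteoglycan that also binds TGF-beta. It stood at 11.02 RPKM in bone marrow against 247 in heart. Its heart level was 22.4-fold that of bone marrow [20.6 to 24.3], with a log2 ratio of 4.36. That interval rests on 620 and 16665 reads, the smallest whole numbers that fit the values. Lum (97565501 to 97572703) encodes lumican, a keratan sulfate proteoglycan of cornea and other connective tissues. It stood at 0.393 RPKM in bone marrow, from 44 reads, and at 31.8 in heart, from 4285 reads. The heart level was 81.1-fold higher [60.3 to 112], and the log2 ratio was 4.56. By log2 ratio, Lum was the gene at rank 35 and Dcn the gene at rank 43 toward heart among the 7659.

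Kera and Epyc gave next to no reads. Kera (97607205 to 97613688), which encodes the corneal proteoglycan keratocan, had 0 reads in either library, which allows a level of up to 0.0285 RPKM in bone marrow and of 0.0237 in heart. Epyc (97644068 to 97682454), which encodes epiphycan, had 0 reads in bone marrow, which allows up to 0.0217 RPKM, and 4 in heart, or 0.0241 RPKM. The annotated Epyc exons share 1041 bases with those of an uncharacterised noncoding RNA on the other strand, listed at 0 in both libraries. The chromosome 10 cluster therefore describes Dcn and Lum alone.

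On chromosome 13, all 3 members were higher in bone marrow, by very different amounts. They lie in the order Aspn, Omd, Ogn on the plus strand within 80.1 kb, with gaps of 15.2 and 15.5 kb. In bone marrow they stood at similar levels per length. Aspn (49544443 to 49567565) encodes asporin, a relative of decorin that binds collagen and calcium. Aspn was at 58.9 RPKM in bone marrow, from 7481 reads, and at 11.8 in heart, from 1802 reads. The bone marrow level was 4.99-fold higher [4.74 to 5.25], with a log2 ratio of -2.23. Omd (49582766 to 49592609) encodes osteomodulin, a keratan sulfate proteoglycan of mineralized tissue. Its bone marrow level was also 58.9 RPKM, from 4945 reads, but the heart level was 0.0495, from 5 reads. That is a 1188-fold difference [509 to 3661] and a log2 ratio of -5.83. Ogn (49608071 to 49624500) encodes osteoglycin, also called mimecan. It stood at 78.3 RPKM in bone marrow, from 10733 reads, and at 0.862 in heart, from 142 reads. The bone marrow level was 90.8-fold higher [76.9 to 108], and the log2 ratio was -5.41.

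Of the 3, Aspn kept the highest level in heart. Its RPKM over that of Omd was 1.00 in bone marrow and 238 in heart, and over that of Ogn 0.752 and 13.7. The intervals of the 3 ratios of heart to bone marrow do not overlap, so the neighbours differed in size of difference by more than these intervals cover. All 3 genes lie inside Cenpp (49464027 to 49652746), a centromere protein gene on the minus strand, at 2.66 RPKM in bone marrow against 0.630 in heart. Annotated Cenpp exons share 7 bases with Aspn exons and 0 with those of Omd and Ogn. Whether reads were counted by strand is not given in the sources used here.

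On chromosome 1, both members were higher in bone marrow. Prelp (133910304 to 133921414, minus strand) encodes a heparin-binding protein that links basement membranes to collagen. It stood at 44.2 RPKM in bone marrow, from 8636 reads, and at 0.976 in heart, from 229 reads, a 45.3-fold difference [39.7 to 51.9] and a log2 ratio of -4.52. Fmod (134037254 to 134048277, plus strand) encodes fibromodulin, a collagen-binding proteoglycan that is prominent in tendon and cartilage. It was at 68.6 RPKM in bone marrow, from 12247 reads, and at 0.294 in heart, from 63 reads. The difference was 234-fold [182 to 304], and the log2 ratio was -5.75. The annotated Prelp exons share 350 bases with those of an antisense RNA, also listed at 0 in both libraries. Omd, Fmod, Ogn and Prelp held ranks 6, 7, 11 and 28 toward bone marrow among the 7659 genes, and Aspn held rank 186.

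Bgn, the lone member on chromosome X (73483602 to 73495933), encodes biglycan, the closest relative of decorin. It was the most abundant member in each library, at 1014 RPKM in bone marrow against 1917 in heart, the gene at rank 26 of all by level in bone marrow and at rank 10 in heart. The heart level was 1.89-fold higher, a log2 ratio of 0.92, just under the 2-fold rule. Its read numbers were not resolved, but a model of only 1000 bases would give an interval of 1.87 to 1.91. With the libraries rescaled in 4 ways, the log2 ratio lay between 0.99 and 1.07 and passed the rule in 3 of them. The call of Bgn therefore depends on the scaling, and that of no other member did.

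**Figure D2:**
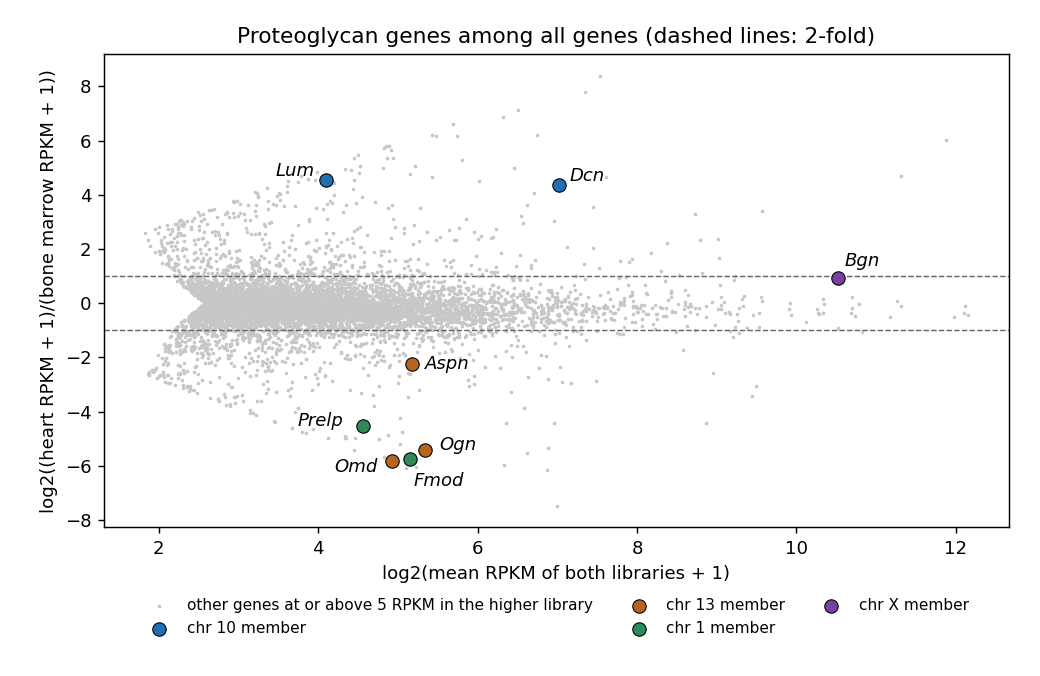
Each gene that reached 5 RPKM, by log2 of its mean RPKM + 1 (horizontal) and its log2 ratio of heart to bone marrow (vertical), with dashed lines at 2-fold and the 8 members that passed this floor in colours by chromosome. Lum at 4.56 and Dcn at 4.36 lie far above the lines, Omd, Fmod, Ogn, Prelp and Aspn below them, and Bgn at 0.92 just inside.

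The summed level of the members other than Bgn was similar in the libraries, but different genes made it up. It came to 320 RPKM in bone marrow against 292 in heart. Members on chromosomes 13 and 1 supplied 96.4% of it in bone marrow and 4.78% in heart. Those on chromosome 10 supplied 3.56% in bone marrow and 95.2% in heart, and Dcn alone 84.3% of the heart sum. In bone marrow no member held more than the 24.4% of Ogn, followed by Fmod with 21.4%, Omd and Aspn with 18.4% each and Prelp with 13.8%. With Bgn included, Bgn made up 76.0% of the sum in bone marrow and 86.8% in heart.

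The order of levels differed between the libraries. In bone marrow it ran Bgn, Ogn, Fmod, then Omd and Aspn together, then Prelp, Dcn and Lum. Among members with read numbers, only Omd [57.2 to 60.5 RPKM] and Aspn [57.5 to 60.2] had counting intervals that overlapped there. In heart it ran Bgn, Dcn, Lum, Aspn, Prelp, Ogn, Fmod, Omd and Epyc. There the intervals of Prelp [0.854 to 1.11 RPKM] and Ogn [0.726 to 1.02] overlapped, as did those of Omd [0.0161 to 0.116] and Epyc [0.00656 to 0.0616]. Neighbours with intervals apart differ in these libraries, which says nothing of the spread between cultures.

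Within classes I and II, members were found in both directions, and class II members on chromosomes 13 and 1 went the same way. Class I holds Dcn (higher in heart), Aspn (higher in bone marrow) and Bgn (within 2-fold). Class II holds Lum, which was higher in heart, Omd, Fmod and Prelp, which were higher in bone marrow, and Kera, which had no reads. Class III holds Ogn, higher in bone marrow, and Epyc, near 0. Lumican and fibromodulin are known to bind the same part of type I collagen. The Fmod level was 175 times that of Lum in bone marrow, and the Lum level was 108 times that of Fmod in heart. Biglycan and decorin are likewise close relatives, and the Bgn level was 92.0 times that of Dcn in bone marrow and 7.77 times in heart. Chromosome and direction went together here over a small number of neighbouring genes, which are not replicates, and no test was made of it.

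Sequences upstream of the gene start are shown for Aspn, Omd and Ogn, the neighbours on chromosome 13 that were higher in bone marrow, for Fmod, which was higher there too but lies on another chromosome, and for Bgn, which was high in both libraries. They are RefSeq promoters on GRCm38.p6, cut to the 250 bases before the start and written 5′ to 3′ on the strand of the gene. In that set 8 of the 10 members were matched, all but Dcn and Lum. The RefSeq starts of Omd and Ogn lie upstream of the gene starts in the files. Capitals mark matches on either strand to TATAAA (the TATA box), TGANTCA (the AP-1 site), CANNTG (the E-box) or ACCACA (a RUNX core), where N is any base and matches may overlap. The windows are chr13:49544193-49544442 for Aspn, chr13:49582212-49582461 for Omd, chr13:49607765-49608014 for Ogn and chr1:134037004-134037253 for Fmod, all on the plus strand. The Bgn window is chrX:73483351-73483600, plus strand.
Aspn: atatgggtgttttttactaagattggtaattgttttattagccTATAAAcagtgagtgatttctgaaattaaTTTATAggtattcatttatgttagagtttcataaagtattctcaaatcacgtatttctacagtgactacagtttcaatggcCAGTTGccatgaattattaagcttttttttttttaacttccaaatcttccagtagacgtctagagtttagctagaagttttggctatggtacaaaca
Omd: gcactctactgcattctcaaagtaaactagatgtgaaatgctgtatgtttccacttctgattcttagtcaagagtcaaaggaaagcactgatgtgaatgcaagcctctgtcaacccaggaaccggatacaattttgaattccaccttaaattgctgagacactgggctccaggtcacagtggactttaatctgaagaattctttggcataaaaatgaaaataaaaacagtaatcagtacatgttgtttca
Ogn: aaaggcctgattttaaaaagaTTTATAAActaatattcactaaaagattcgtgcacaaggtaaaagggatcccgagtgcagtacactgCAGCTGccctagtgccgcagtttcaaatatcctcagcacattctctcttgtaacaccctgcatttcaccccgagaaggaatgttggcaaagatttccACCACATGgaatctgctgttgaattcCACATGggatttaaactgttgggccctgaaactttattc
Fmod: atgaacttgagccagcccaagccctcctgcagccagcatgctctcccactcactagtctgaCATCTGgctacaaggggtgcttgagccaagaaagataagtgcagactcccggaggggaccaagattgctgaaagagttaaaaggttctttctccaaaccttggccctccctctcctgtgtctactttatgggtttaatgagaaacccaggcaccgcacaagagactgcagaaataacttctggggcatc
Bgn: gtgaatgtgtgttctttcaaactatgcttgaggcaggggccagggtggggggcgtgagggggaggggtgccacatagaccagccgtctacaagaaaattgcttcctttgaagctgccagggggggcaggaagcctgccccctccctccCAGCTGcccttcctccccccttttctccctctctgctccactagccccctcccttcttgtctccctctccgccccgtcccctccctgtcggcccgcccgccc

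The 5 windows had little in common in these letters. TATAAA matched in Aspn (2 matches) and Ogn (2, overlapping), and in 12.4% of all 32851 promoter windows of 250 bases. CANNTG matched 3 times in Ogn and 1 time each in Aspn, Fmod and Bgn, and in 66.2% of all windows. ACCACA matched 1 time, in Ogn, where it overlaps an E-box match, and in 14.0% of all windows. TGANTCA matched in none of the 5 and in 6.75% of all, and the Omd window held none of the 4 motifs. Matches are letters only and do not show a site in use. The windows differ in composition, with 30% G and C in Aspn, 38.4% in Omd, 42.0% in Ogn, 51.2% in Fmod and 64.4% in Bgn, beside a median of 52.4% over all windows. Shared runs were sought over the promoters of the 8 members from 250 bases before the start to 50 after it. The longest were 12 bases, in Epyc and Aspn, Kera and Epyc, and Prelp and Bgn, and occurred in 4, 10 and 62 of all 32851 promoters. Runs of 11 were shared by Omd and Ogn, Fmod and Ogn, and Prelp and Fmod, and occurred in 4, 6 and 81. In Fmod the run shared with Ogn lies past the start, outside the window shown. The longest runs were not limited to members of one chromosome, and those in Prelp were the most common among all promoters.

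Genes around the clusters were read to see whether the differences ended with the members. Within 500 kb of the outer members, protein-coding genes at or above 1 RPKM in either library numbered 0 of 2 on chromosome 10, 8 of 12 on chromosome 13, 11 of 22 on chromosome 1 and 13 of 39 on chromosome X. The 8 neighbours on chromosome 13 all had log2 ratios below 0, from -3.67 to -0.35 with a median of -0.91. They stayed below 0 under the 4 scalings run. The 11355 genes that reached 1 RPKM had a median of -0.11. Below 0 were also 8 of 11 neighbours on chromosome 1 and 10 of 13 around Bgn, or 6 and 5 when scaled by the median ratio. By the same 2-fold rule, 9.51% of the 7659 genes were higher in bone marrow and 7.56% in heart. Of the 8 neighbours, 2 were higher in bone marrow and 1 was below 5 RPKM. The 2 neighbours were Fgd3, which encodes an activator of the GTPase Cdc42, at 13.4 RPKM in bone marrow against 0.126 in heart, and Bicd2, which encodes a dynein adaptor, at 34.6 and 11.8. Without a pseudocount the Fgd3 difference was 106-fold. That is more than for Ogn (90.8), Prelp (45.3) and Aspn (4.99) and less than for Omd (1188) and Fmod (234). On the other side, Nol8 and Iars, the nearest genes past Ogn, had log2 ratios of -0.79 and -0.87.

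The chromosome 1 neighbours had a median log2 ratio of -0.16, with 2 of 11 higher in bone marrow, 0 higher in heart and 1 below 5 RPKM. The 2 are the expressed coding genes that flank the cluster on each side. Atp2b4, which encodes a plasma membrane calcium pump, stood at 6.09 RPKM in bone marrow against 0.467 in heart. Of the 4 plasma membrane calcium pump genes, Atp2b4 was the 1 higher in bone marrow, Atp2b1 was within 2-fold at 26.9 and 42.0 RPKM, and 2 were below 5 RPKM. Btg2, which encodes an antiproliferative factor, stood at 19.6 and 5.51. Between Prelp and Atp2b4 lies another family member, Optc, which encodes opticin of the eye, with 18 reads in bone marrow and 5 in heart. Around Bgn the median was -0.06, or 0.04 when scaled by the median ratio, and 1 of 13, Xlr3b, was higher in heart, at 8.93 RPKM against 0.852 in bone marrow. Of the 13, 3 were below 5 RPKM. Xlr3b has near-identical copies, so its value is uncertain. The nearest expressed gene, Haus7, stood at 26.1 RPKM in bone marrow against 13.9 in heart, opposite to Bgn.

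**Figure D3:**
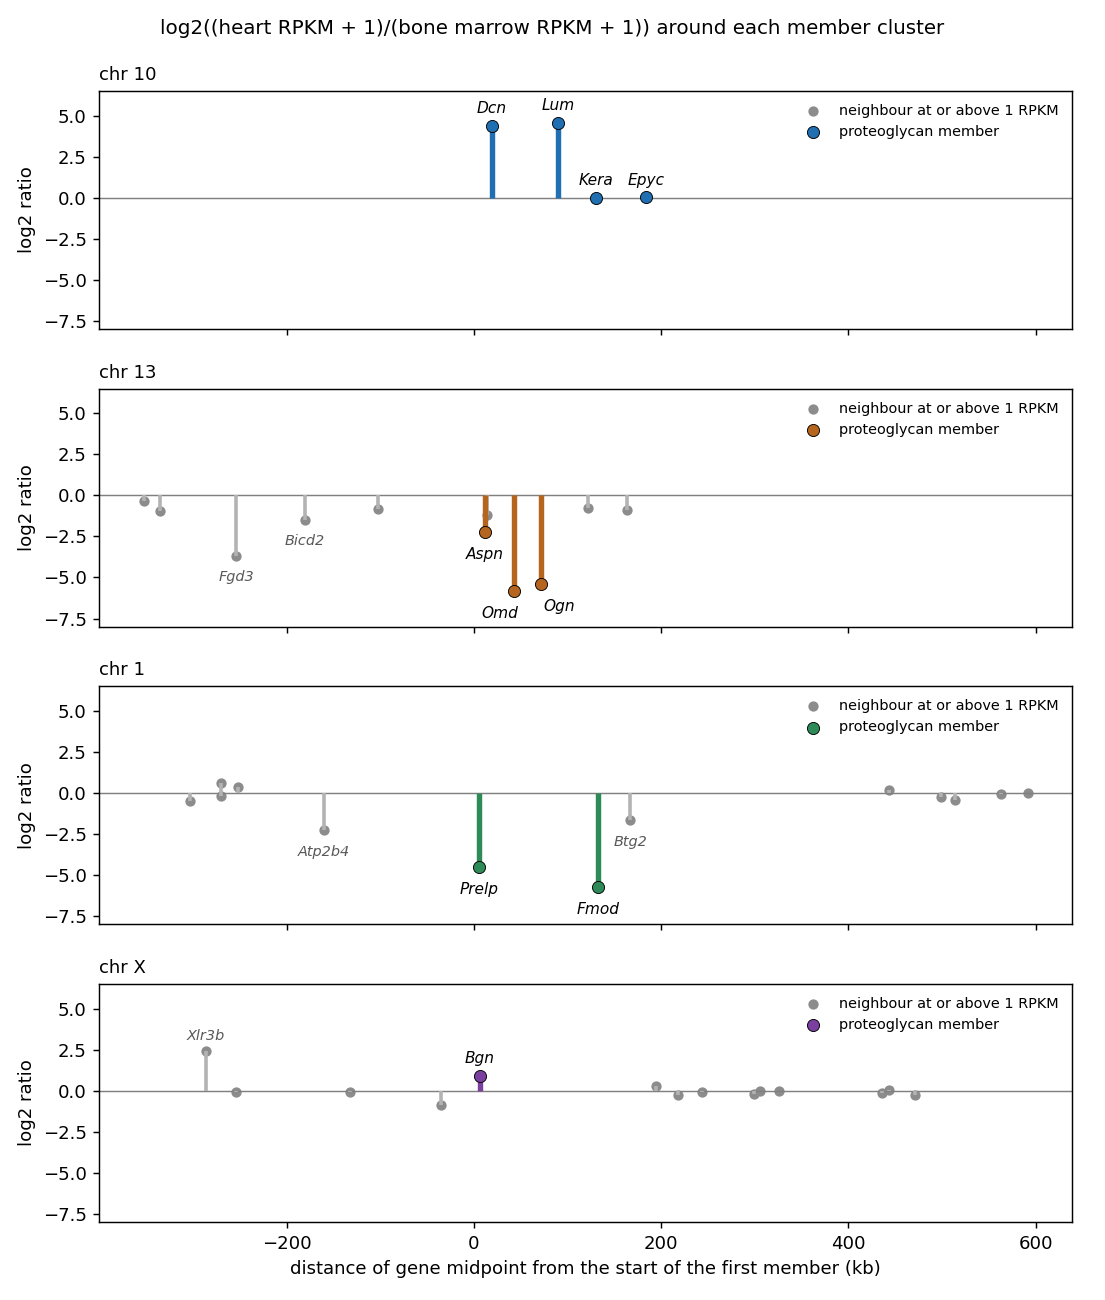
Log2 ratio of heart to bone marrow for members (coloured) and for protein-coding neighbours at or above 1 RPKM (grey), by distance of the gene's midpoint in kb from the start of the first member, in 1 panel per chromosome. Omd at -5.83, Ogn at -5.41, Prelp at -4.52 and Fmod at -5.75 reach further down than any neighbour on this scale, which includes the pseudocount. Fgd3 at -3.67 is the next, and Aspn at -2.23 does not reach as far down as Fgd3 or Atp2b4 at -2.27. Chromosome 10 has no neighbour at or above 1 RPKM.

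Of 8 other genes of the family, 1 was higher in heart, 1 in bone marrow, 1 was within 2-fold and 5 stayed below 5 RPKM. Podn, which encodes podocan, stood at 10.9 RPKM in heart against 0.317 in bone marrow, a 34.4-fold difference [27.3 to 44.1]. Its closest relative Podnl1 went the other way, at 6.08 RPKM in bone marrow against 0.222 in heart, 27.5-fold [20.7 to 37.1]. Tsku, which encodes the secreted signalling modulator tsukushi, stood at 12.3 RPKM in heart against 6.59 in bone marrow. Ecm2, which lies beside Aspn, was at 0.963 RPKM in bone marrow against 0.394 in heart, a 2.44-fold difference [1.89 to 3.17]. Its log2 ratio was -0.49, so it was low in both libraries though in the direction of its neighbours. Chadl, on chromosome 15, differed by a similar 2.00-fold, at 0.664 RPKM in bone marrow against 0.332 in heart. Optc, Chad and Nyx reached no more than 0.129 RPKM.

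Most of the genes that build the sugar chains and reached 5 RPKM were within 2-fold, as were most genes of any kind. Beside each list count stand the shares of all 7659 genes by the same rule, 7.56% higher in heart and 9.51% in bone marrow. Of 23 genes for the linkage region and for chondroitin and dermatan sulfate, 4 were higher in heart, 2 in bone marrow, 12 neither and 5 below 5 RPKM, with a median log2 ratio of -0.06 over the 20 at or above 1 RPKM. The 4 of the 18 that reached 5 RPKM were a larger share toward heart than that of all genes. Chst11, which adds sulfate to chondroitin, stood at 39.2 RPKM in heart against 4.71 in bone marrow. Xylt1, which attaches the first sugar to the core protein, stood at 7.98 and 2.42, Csgalnact1, which starts the chondroitin chain, at 12.7 and 4.27, and Dsel, a relative of the dermatan sulfate epimerase, had a log2 ratio of 1.09. The genes higher in bone marrow were Pxylp1, a phosphatase of the linkage region, at 10.0 RPKM against 2.89 in heart, and the sulfotransferase gene Chst12 at 19.2 against 8.32, which was within 2-fold when scaled by the median ratio.

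Of 12 keratan sulfate genes, 1 was higher in heart and 0 in bone marrow, 6 were within 2-fold and 5 below 5 RPKM, with a median of -0.20. Higher in heart was the sialyltransferase gene St3gal1, at 7.17 RPKM in heart against 1.67 in bone marrow. Of 6 tyrosine sulfation and sulfate supply genes, 1 was higher in bone marrow and 5 were within 2-fold, at a median of -0.41. Tpst2, which sulfates tyrosines such as those at the start of fibromodulin and osteomodulin, stood at 29.3 RPKM in bone marrow against 7.66 in heart, while its relative Tpst1 stood at 8.35 and 10.7.

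Among the collagens that these proteoglycans bind, 7 of 11 were within 2-fold, 2 higher in bone marrow, 1 higher in heart and 1 below 5 RPKM, with a median of -0.02. The collagen gene higher in heart was Col3a1, of type III collagen, at 1388 RPKM in heart against 129 in bone marrow. In the other direction were the fibril-associated Col12a1 (-5.35 on the log2 scale) and the cartilage collagen Col2a1 (-3.20). Each gene has 1 ratio here, so whether any collagen gene varies together with the members was not tested. Of 16 receptors and growth factor partners, 1 was higher in heart, 3 in bone marrow, 7 neither and 5 below 5 RPKM, with a median of -0.33. Egfr, a receptor that decorin binds, stood at 20.7 RPKM in heart against 2.75 in bone marrow. Toward bone marrow went the growth factor genes Bmp4 (-6.03), Tgfb2 (-2.15) and Tgfb3 (-1.54 on the log2 scale). Tgfb1 stood at 36.1 RPKM in heart against 18.3 in bone marrow, a log2 ratio of 0.94 that passed the rule when the libraries were rescaled.

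Of 12 proteases and helpers that cut these proteoglycans, 3 were higher in heart, 1 in bone marrow, 6 neither and 2 below 5 RPKM, with a median of 0.37. The gelatinase gene Mmp2 stood at 792 RPKM in heart against 246 in bone marrow, Adamts4 at 18.3 and 4.56, and the stromelysin gene Mmp3 had a log2 ratio of 8.40, while the collagenase gene Mmp13 had -2.61. Bmp1, which removes the propeptide of biglycan, was within 2-fold, at 109 RPKM in heart against 87.6 in bone marrow. Of 12 large and basement membrane proteoglycans, 3 were higher in heart (Vcan, Cspg4 and Agrn, with log2 ratios of 3.12, 1.91 and 1.18), 1 in bone marrow (Prg4, -2.53), 1 neither and 7 below 5 RPKM, with a median of 1.18. Vcan, which encodes versican, stood at 103 RPKM in heart against 10.9 in bone marrow.

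**Figure D4:**
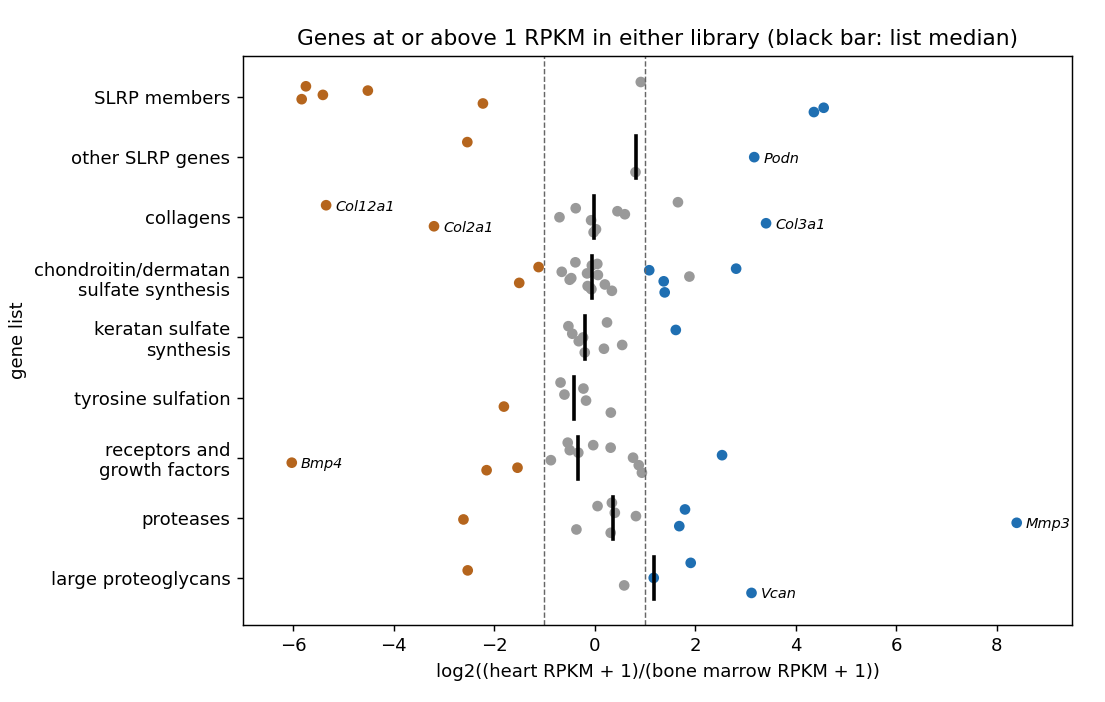
Log2 ratio of heart to bone marrow for genes at or above 1 RPKM in either library, by list, with dashed lines at 2-fold. Blue marks genes counted as higher in heart, brown genes counted as higher in bone marrow and grey the rest. A black bar marks the median of each list, but not that of the members. Most single members lie outside the lines. The medians of the sulfation lists lie between -0.41 and -0.06. That of the collagens is -0.02, with single collagen genes from -5.35 to 3.41. The medians of the other lists are -0.33 for receptors and growth factors, 0.37 for proteases, 0.81 for other family genes and 1.18 for large proteoglycans.

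Marker genes of other lineages were read beside the members. Of 6 osteoblast markers, 4 were higher in bone marrow, beside 9.51% of all 7659 genes. The 6 had summed levels of 99.5 RPKM in bone marrow against 6.52 in heart. Runx2, 1 of the 4, only just passed the rule, with a log2 ratio of -1.02 (9.46 RPKM in bone marrow against 4.16 in heart). Ibsp was at 12.9 RPKM in bone marrow and listed at 0 in heart. The part of these markers in the proteoglycan differences was not tested. Of 4 tenocyte markers, Scx stood at 23.7 RPKM in bone marrow against 0.529 in heart, Tnc at 24.6 and 53.4 and Mkx at 2.83 and 4.85, and Tnmd was listed at 0 in both. The summed level of the 4 was 51.1 RPKM in bone marrow against 58.8 in heart. Of 5 chondrocyte markers, 4 were found, summing to 18.0 and 7.25 RPKM, in bone marrow and heart. Col2a1 was higher in bone marrow, at 8.71 and 0.0565 RPKM, Matn3 was at 2.13 and 0.0511, Sox9 at 7.12 and 7.13, and Acan at 0.00744 and 0.00619. The part of the tenocyte and chondrocyte markers was not tested either. Of 4 keratocyte markers, 0 reached 5 RPKM, and they summed to 1.05 and 1.48. Those of macrophages and blood, of endothelium and of cardiomyocytes summed to less than 1 RPKM per list in each library, with Hbb-bs listed at 0 in both and Ptprc, Adgre1, Nppa and Pecam1 in 1 library each. Of 9 stromal markers, 4 were higher in heart, 1 in bone marrow, 3 neither and 1 below 5 RPKM. In bone marrow and heart, Pdgfrb was at 133 and 139 RPKM and Itgb1 at 369 and 362. Nes, which encodes the Nestin that names these cells, was at 1.20 and 8.74 RPKM. Thy1 was at 0.0603 and 16.7, Eng at 0.576 and 33.9, Nt5e at 1.59 and 0.225, and Ly6a at 229 and 2.23, so each library was low in some of the antigens that define stromal cells.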

How the data were processed

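RNA sequencing of cultured Nestin+ cells gave 1 library per tissue. The authors deposited RPKM for 49585 gene rows, per the file headers. For the aligner, counter and strand handling, nothing was given in the sources used here. The submitters' processing notes name mm8, but the regions of 45149 rows match GENCODE M21 models on GRCm38, the build used for all coordinates.

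With exon-union lengths of those models the values are whole multiples of 1 read, which gave the library totals. Both values were whole within 0.02 reads for 12292 (86.2%) of the 14255 matched rows with no 0. Of the members, 8 have a resolved length, Dcn was given the smallest whole pair, and Bgn was not resolved. Ratios have exact conditional (Clopper-Pearson) 95% intervals and levels exact Poisson intervals. A count of 0 allows up to 3 reads. No count model was fitted.

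Where rows shared a symbol, the row of highest mean was used. Log2 ratios carry a pseudocount of 1 RPKM, which understates differences of low genes, while folds are ratios of RPKM with no pseudocount. With 1 library per tissue there is no p-value or standard error. Median log2 ratios of lists are over genes at or above 1 RPKM. The members and lists were chosen with earlier results of these data known. Named genes are all members, the other family genes, the listed genes 2-fold apart (up to 6 per list) and coding neighbours at or above 1 RPKM. Tpst1, Tgfb1, Bmp1, the listed genes within 2-fold and the motifs and shared runs given were chosen after values were seen. Alternatives were other pseudocounts, floors and fold thresholds, 4 scalings, summed rows and ratios of reads. The scripts were tested on simulated data and ran in Python 3.11.15 with scipy 1.17.1, pandas 2.3.3, numpy 2.4.6 and matplotlib 3.10.9.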

Additional observations from a re-analysis of the deposited data

How the results depend on the processing

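Under the alternatives run no member's log2 ratio changed sign, which pseudocounts and summed rows could not have changed (Kera was at 0 throughout). The counts of 2 members higher in heart and 5 in bone marrow changed only where Bgn passed 2-fold, when heart was rescaled by the median ratio (adding 0.15 on the log2 scale), the upper quartile or the RPKM sum, each of which gave 3 in heart. The log2 ratio of Bgn, the single chromosome X member, was then 1.07, 1.00 and 1.01, and 0.99 with a trimmed mean of log ratios. Sizes depended on the pseudocount: over all members of a cluster, the median log2 ratio of 2.20, -5.41 and -5.13 on chromosomes 10, 13 and 1 became 2.39, -6.35 and -6.41 with 0.1 RPKM and 1.39, -3.66 and -3.42 with 5 RPKM. The chromosome 10 value lies between Dcn and the near-silent Epyc and describes neither. From reads with no pseudocount, Omd had -10.21 and Lum 6.34. Over all genes, the 579 higher in heart and 728 in bone marrow became 383 and 424 with a pseudocount of 5 RPKM, 263 and 315 with a floor of 20 RPKM, and 257 and 229 at 4-fold. With a floor of 1 RPKM or none they were 883 and 1052. Of 198 list counts, 25 moved by over 1.5 times, 17 of them with another floor or threshold. No paired analysis was possible because each tissue has 1 library. Low levels rest on few reads, 5 for Omd and 63 for Fmod in heart.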
